A study of Mus musculus with 18 samples.

Results

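A set of 54 array probes gave a higher signal in regulatory T (Treg) than in conventional T (Tconv) cells on every array of warm brown adipose tissue (BAT), of cold BAT and of spleen. The probes were chosen by their own values in these cells: each was detected on all 9 Treg arrays, and in each of the 3 tissues its lowest Treg value lay above its highest Tconv value. Of the 45267 regular probes of the array, 8425 were detected on all 9 Treg arrays, and the 54 were 0.641% of these. Since the order of Treg and Tconv cells made the set, it is described here without a test. Tests were kept for differences on which the choice set no order, those between BAT and spleen and between cold and warm BAT within a cell type. The choice did use the same arrays. Asking for no overlap can favour probes with little spread on these arrays, and the tests rest on that spread. How far this raised the counts of called probes was not tested.

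Treg cells are CD4+ T cells that restrain immune responses. Their lineage is specified by the transcription factor Foxp3, and they carry high levels of CD25, the alpha chain of the interleukin-2 receptor, whereas Tconv cells are the CD4+ cells that help or drive such responses. Treg cells that live in fat differ from those of lymphoid organs and are known for keeping inflammation of the tissue low, and BAT is the fat depot that burns fuel to make heat in the cold.

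Messenger RNA was profiled on 18 Illumina MouseWG-6 v2.0 arrays, on which beads carry the probes, with 3 arrays for each of 6 groups. Treg and Tconv cells came from BAT of mice held at 30°C for 2 weeks (warm BAT), from BAT of mice moved after the same 2 weeks to 12°C for 2 days (cold BAT) and from spleens labelled with the warm condition. According to the labels, every animal in both cell types carried the Foxp3-GFP-DTR-CD90.1 genotype on a C57BL/6 background and cells were separated by Foxp3, while the methods name C57Bl6 females bought at 8 weeks of age and a sort of CD4+CD25+ against CD4+CD25- cells. The values do not settle which description holds. Organs were pooled before sorting and 2.5 ng of RNA was amplified, each replicate therefore being a pool, and p-values measure the spread between such pools, which may in part be technical. Less RNA per cell and fewer cells of a type cannot be told apart in such samples.

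The deposited table names probes only by their Illumina identifiers, and no list pairing them with genes was used here. Probes are therefore given by identifier, their genes and functions are not stated, and the sorted cells were not checked against Foxp3 or other defining markers. Each of 3 BeadChips held 1 tissue, with its Tconv arrays at the first 3 positions and its Treg arrays at the last 3. Tissue or temperature cannot be told apart from BeadChip, and cell type cannot be told apart from position on the BeadChip. Of all regular probes, 35.7% to 42.2% were detected on BAT arrays and 27.8% to 35.1% on spleen arrays. Detection means a deposited p-value under 0.05, a limit that 18.7% to 24.9% of the negative controls also passed. Signals of the 54 probes came from 20 to 72 beads an array, with a median standard error of 4.58% of the signal.

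Only part of the probes with this order of the arrays in 1 tissue had it in all. Of the 8425 probes detected on all 9 Treg arrays, Treg cells lay above Tconv cells without overlap at 502 (5.96%) in warm BAT, 401 (4.76%) in cold BAT and 718 (8.52%) in spleen. Both BAT sets shared 143 of them, warm BAT and spleen shared 105, and cold BAT and spleen shared 99. The reverse order in 1 tissue was held by 1001 of the 8425 probes (11.9%) in warm BAT, 1667 (19.8%) in cold BAT and 402 (4.77%) in spleen. Some probes meet either order of 3 arrays against 3 without a difference between the cell types, and how many was not tested. The opposite pattern, Tconv above Treg on every array of all 3 tissues, was met by 48 of the 7612 probes detected on all 9 Tconv arrays. Without the detection step, 82 probes met the order of the values. The 28 that it left out included 21 detected on 6 to 8 Treg arrays and 7 detected on fewer.

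The distance between the cell types was largest for ILMN_2911009. On the log2 scale of the quantile-normalized signal without background correction, its Treg arrays read 9.31, 10.17 and 10.19 in warm BAT, 9.66, 9.84 and 10.08 in cold BAT and 10.95, 10.64 and 10.72 in spleen. Its Tconv arrays read 6.82, 6.90 and 7.08 in warm BAT, 6.83, 7.98 and 7.20 in cold BAT and 7.38, 6.79 and 9.09 in spleen. The Treg arrays of all tissues lay above every Tconv array, and a single Tconv array, replicate 3 of the spleen, stood well above the other Tconv arrays. The smallest gap, that is the lowest Treg minus the highest Tconv value in the tissue where this distance was least, was 1.54 and lay in the spleen. After background correction, ILMN_2911009 was 15.9-fold higher in Treg cells of cold BAT and 19.8-fold higher in those of spleen. It was not detected on any warm BAT Tconv array, and there the difference was at least 23.7-fold, counted from the higher of its own signal and the lowest signal of a detected probe on each array. ILMN_2911009 exceeded the 95th percentile of the negative controls on 2 of 9 Tconv arrays, so its folds rest in part on signals near background.

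ILMN_2635132 had the next largest smallest gap, 1.23. Its Treg values were 9.45, 9.63 and 9.16 in warm BAT, 9.12, 10.03 and 9.35 in cold BAT and 9.30, 8.52 and 9.58 in spleen. Its Tconv values were 7.21, 7.09 and 7.29 in warm BAT, 7.32, 7.39 and 7.21 in cold BAT and 6.99, 7.08 and 7.29 in spleen. The Tconv arrays formed a narrow band in all 3 tissues, and the Treg arrays stood clear of it, with splenic Treg replicate 2 the lowest. The corrected differences were 14.6-fold in warm BAT, 14.0-fold in cold BAT and 11.8-fold in spleen. ILMN_2635132 exceeded the 95th percentile of the negative controls on 0 of 9 Tconv arrays, so the narrow band and these folds rest on signals near background.

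ILMN_1251126 combined a large distance with detection on all 18 arrays. Its Treg values were 9.48, 9.30 and 9.51 in warm BAT, 9.08, 8.95 and 9.56 in cold BAT and 9.38, 9.49 and 9.53 in spleen. Its Tconv values were 8.06, 7.55 and 7.73 in warm BAT, 7.45, 7.78 and 7.76 in cold BAT and 8.12, 7.71 and 8.38 in spleen. The 3 tissues gave nearly the same Treg level, and the highest Tconv values were those of the spleen. The corrected differences were 6.75-fold in warm BAT, 6.50-fold in cold BAT and 4.59-fold in spleen.

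For ILMN_2917180, Treg cells read 9.10, 9.08 and 9.42 in warm BAT, 8.80, 9.45 and 9.27 in cold BAT and 8.78, 8.23 and 9.22 in spleen. Tconv cells read 7.11, 6.83 and 7.11 in warm BAT, 7.13, 7.40 and 7.55 in cold BAT and 6.95, 6.92 and 7.31 in spleen. The signal in warm BAT Tconv cells was not detected on any array, and the corrected difference there was at least 13.1-fold, beside 9.68-fold in cold BAT and 8.28-fold in spleen. ILMN_2917180 exceeded the 95th percentile of the negative controls on 0 of 9 Tconv arrays, so these folds too rest on signals near background. ILMN_2446559 read 9.36, 9.14 and 9.51 in warm BAT Treg, 8.82, 9.23 and 9.72 in cold BAT Treg and 8.04, 9.02 and 9.54 in splenic Treg cells. Its Tconv values were 7.81, 7.32 and 7.69 in warm BAT, 7.01, 7.54 and 8.17 in cold BAT and 7.18, 7.17 and 6.97 in spleen. Here the groups came closest in cold BAT, where Tconv replicate 3 and Treg replicate 1 were 0.66 apart.

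The smallest gaps of ILMN_2631093, ILMN_2692989, ILMN_1233333, ILMN_2419494 and ILMN_3103746, the rest of the 10 probes with the widest separation, ran from 0.51 to 0.60. Their corrected differences ran from 2.54-fold to 5.37-fold over the 3 tissues. The largest, of ILMN_1233333 in spleen, rests on Tconv intensities of 146, 133 and 174. The 95th percentiles of the negative controls on those arrays were 196, 187 and 189. ILMN_2631093 and ILMN_2419494 also lay below this limit on every splenic Tconv array, as did ILMN_3103746 on every cold BAT Tconv array. These folds too rest in part on signals near background. The smallest gap lay in the spleen for all of these 5 but ILMN_2419494, whose warm BAT arrays came closest. Over the 54 probes, the smallest gap exceeded 0.5 log2 units for 11 and was 0.1 or less for 17.

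**Figure D1:**
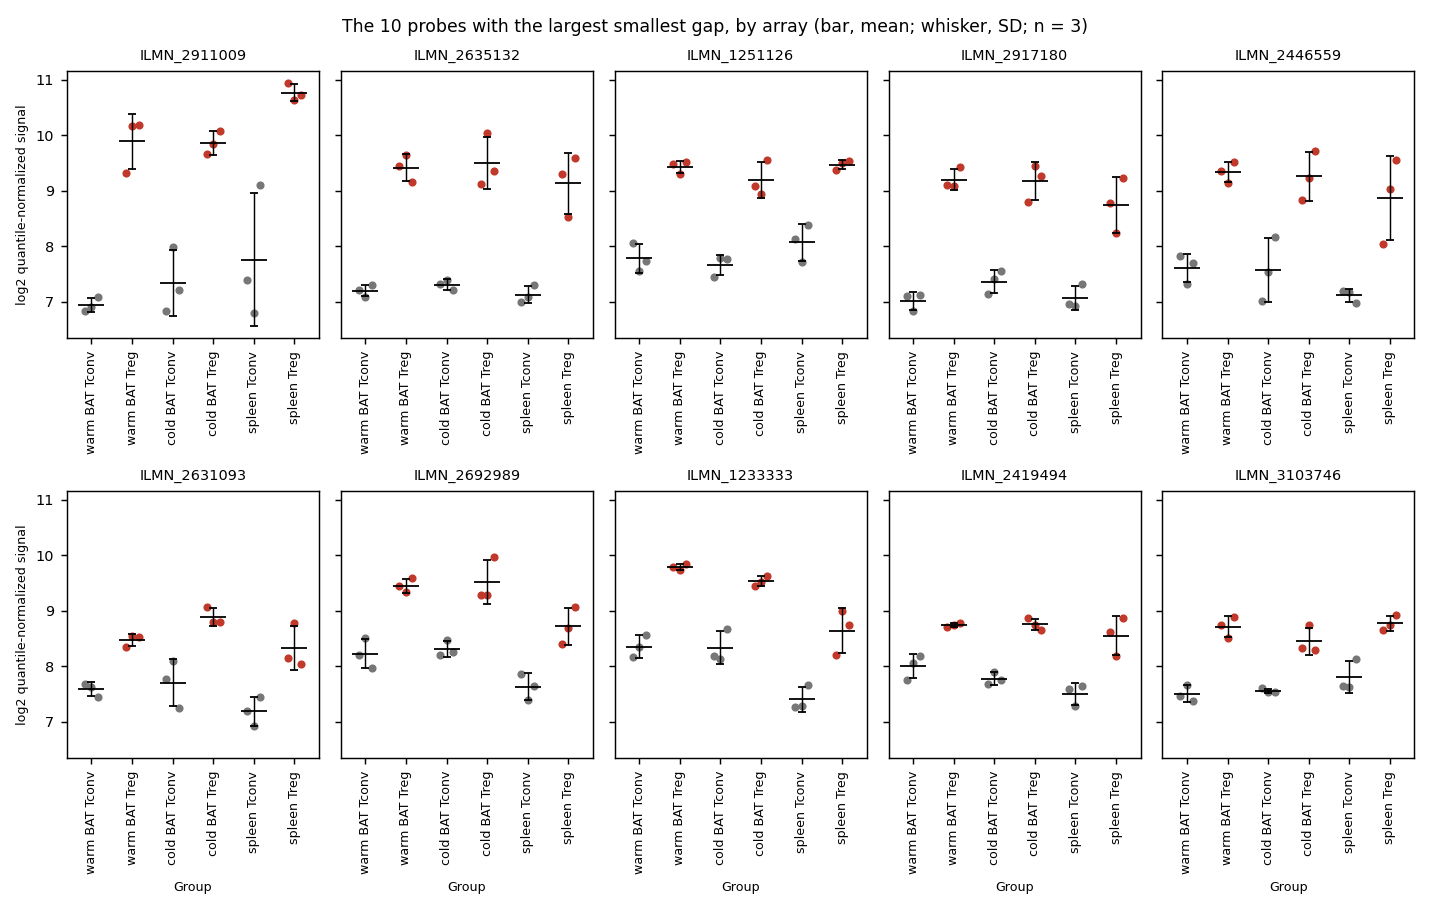
Signals of the 10 probes with the largest smallest gap on every array, as log2 of the quantile-normalized signal (vertical axis) in the 6 groups (horizontal axis). Points are arrays (grey, Tconv; red, Treg), bars are means and whiskers SD over 3 arrays. In each panel and tissue the red points lie above the grey points, and for ILMN_2911009 one splenic Tconv array at 9.09 lies apart from the other Tconv arrays.

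The probes just inside and outside the choice show how fine its edge was. The 5 closest to it on the inside were ILMN_2777247, ILMN_1250068, ILMN_1246340, ILMN_2502346 and ILMN_2945348, with smallest gaps of 0.00906, 0.0111, 0.0304, 0.0333 and 0.0357 log2 units. On the outside, ILMN_2416628, ILMN_2623699, ILMN_2727273 and ILMN_3160517 missed it with smallest gaps of -0.00242, -0.00436, -0.00692 and -0.0115. The first 3 of these overlapped in cold BAT and ILMN_3160517 in spleen. ILMN_2450735 had gaps of exactly 0 because normalization gave it the same value, 14.38, on all 18 arrays.

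Brightness varied widely within the set. The 5 brightest probes over the 9 Treg arrays were ILMN_1248382, ILMN_3079919, ILMN_2607547, ILMN_2993109 and ILMN_2780424, with mean log2 signals of 11.69, 11.16, 11.04, 10.90 and 10.84. Over the 9 Tconv arrays they averaged 11.28, 10.69, 10.51, 10.13 and 9.96, a short distance below. The 5 dimmest were ILMN_2721337, ILMN_1254228, ILMN_2768936, ILMN_2777247 and ILMN_1246340, with Treg means of 7.72, 7.71, 7.65, 7.58 and 7.39 and Tconv means of 7.19, 6.91, 7.19, 7.29 and 7.20. These 5 exceeded the 95th percentile of the negative controls on 2 to 7 of the 9 Treg arrays and on 0 Tconv arrays. Of the 54 probes, 31 exceeded it on all 9 Treg arrays. On Tconv arrays, 16 were detected on all 9, 37 on 1 to 8, and ILMN_1254228 on 0.

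**Figure D2:**
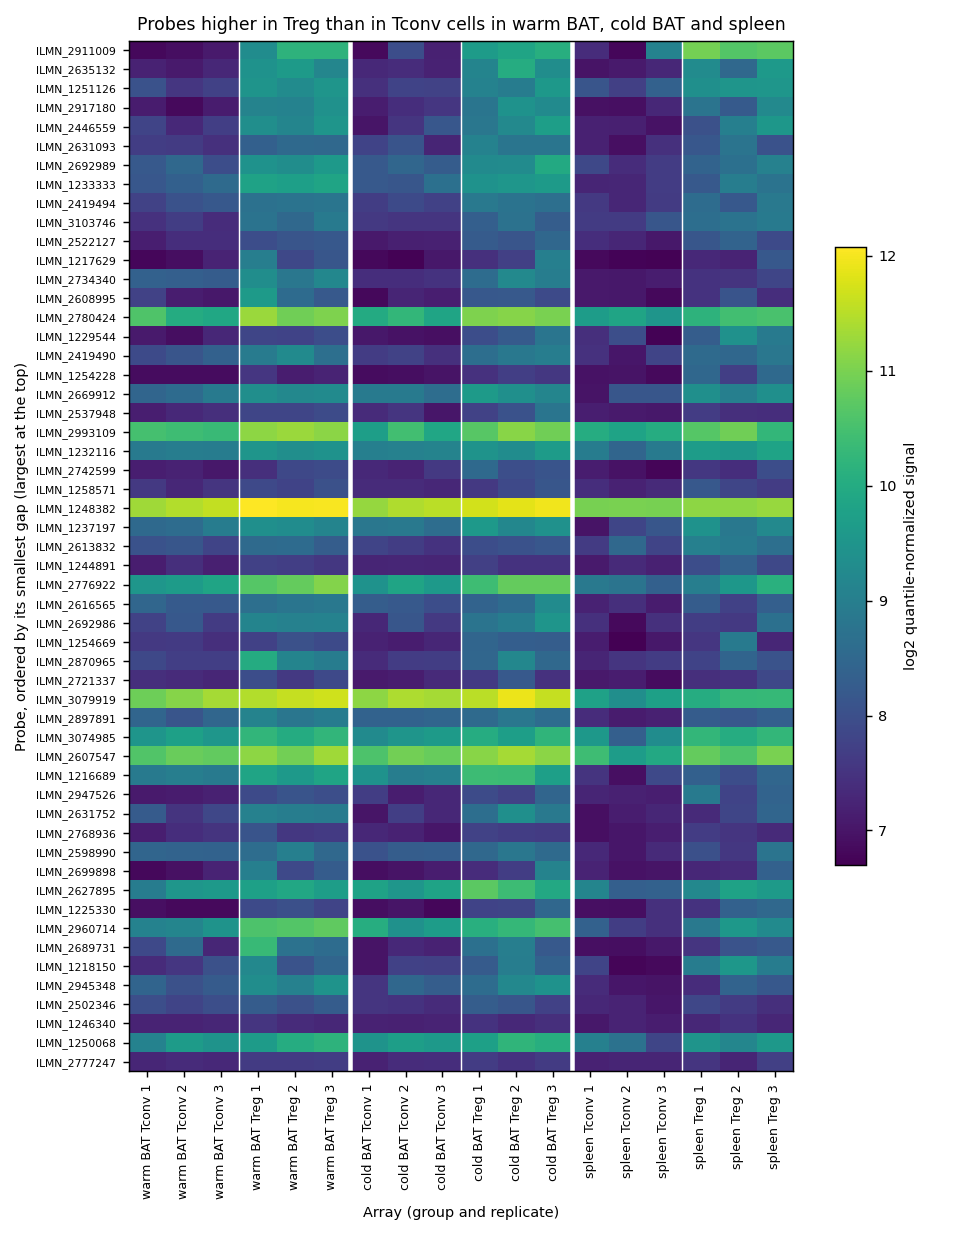
All 54 probes (rows, largest smallest gap at the top) on the 18 arrays (columns, by group and replicate), coloured by log2 of the quantile-normalized signal. Within each tissue the 3 Treg columns are brighter than the 3 Tconv columns in every row, as the choice of probes requires, and the brightest rows, such as ILMN_1248382 at a Treg mean of 11.69, differ little between the cell types.

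The median difference was of the same order in the 3 tissues. With background correction, the median difference between Treg and Tconv cells over the 54 probes was 1.21 log2 units in warm BAT (range 0.26 to 4.70), 1.51 in cold BAT (0.31 to 3.99) and 1.61 in spleen (0.22 to 4.31). More than 2-fold were 31 probes in warm BAT, where 3.03% of the 17395 tested probes passed this fold in that direction, 35 in cold BAT (4.53%) and 42 in spleen (4.6%). The choice of probes used these contrasts, so nothing is read from the counts. A difference of more than 2-fold was held in all 3 tissues by 27 probes, in 2 by 7, in 1 by 13 and in none by 7. The largest difference of a probe was in spleen for 27, in cold BAT for 15 and in warm BAT for 12.

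Within the set, probes with a large difference in one tissue tended to have one in the others. Across the 54 probes, the corrected differences of warm and cold BAT had a Pearson correlation of 0.84 and a Spearman correlation of 0.82. Against spleen, the Pearson correlation was 0.62 for warm BAT and 0.55 for cold BAT, and the Spearman correlation was 0.48 and 0.43. These describe 54 probes that were read on the same arrays and chosen by these differences. Probes are not independent replicates, and the correlations are given without a test. In Treg cells the mean corrected log2 signal of the 54 probes was 8.40 ± 0.11 in warm BAT, 8.35 ± 0.17 in cold BAT and 7.80 ± 0.22 in spleen (SD, n = 3 arrays each). In Tconv cells it was 6.92 ± 0.02, 6.77 ± 0.13 and 6.12 ± 0.11 in the same order. Both cell types were lowest in spleen. The array means of warm and cold BAT overlapped in Treg cells, whereas in Tconv cells the cold arrays, from 6.64 to 6.90, lay just below the warm ones, from 6.91 to 6.94.

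The first comparison on which the choice set no order asked whether Treg cells of warm BAT and spleen differed at these probes. By limma's moderated test over the 17395 tested probes, at more than 2-fold with a Benjamini-Hochberg adjusted p-value under 0.05, 12 of the 54 were higher in BAT Treg cells (22.2%). Over all tested probes this share was 2.54%, and among the 8425 probes detected on all 9 Treg arrays it was 1.4%. ILMN_1254228 was the only one of the 54 lower in BAT Treg cells (1.85%), beside 0.862% of all tested probes and 1.6% of those detected on all 9 Treg arrays, a share near the background. The median log2 difference, warm BAT minus spleen, was 0.53 over the 54 probes, -0.08 over all tested probes and -0.22 over those detected on all 9 Treg arrays. It was above 0 for 41 of the 54 probes. Detection was also more frequent on BAT than on spleen arrays, from 35.7% to 42.2% against 27.8% to 35.1%, and its part in the result was not tested.

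ILMN_2734340 differed most. On the log2 scale after background correction, its Treg arrays read 9.01, 8.33 and 8.83 in warm BAT and 5.70, 5.75 and 6.45 in spleen. The groups did not overlap, and the difference of 2.75 ± 0.24 (SE) log2 units, or 6.74-fold, had a limma adjusted p-value of 2.25e-05. The splenic intensities were 147, 203 and 270, beside 95th percentiles of the negative controls of 161, 238 and 267 on those arrays. The size of the fold therefore rests on signals near background. The difference was 2.23 log2 units with an offset of 50 and 1.52 without background correction. Cold BAT Treg cells read 7.98, 8.87 and 8.53, also above every splenic array. ILMN_1216689 read 9.63, 9.32 and 9.61 in warm BAT Treg and 7.56, 6.80 and 7.78 in splenic Treg cells, again without overlap (4.41-fold, limma adjusted p = 0.00392).

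The next largest differences rested on a wider spread. ILMN_2945348 read 9.01, 8.64 and 9.16 in warm BAT against 5.51, 7.68 and 7.24 in spleen, where replicate 1 stood far below the other arrays (4.37-fold, limma adjusted p = 0.0391). ILMN_2608995 read 9.38, 7.93 and 7.31 against 5.72, 7.06 and 5.54, with replicate 1 of warm BAT the highest and replicate 2 of spleen near the lowest BAT array (4.28-fold, adjusted p = 0.0281). ILMN_2631752 read 8.65, 8.53 and 8.48 against 5.45, 6.45 and 7.73, a tight group against a wide one (4.03-fold, adjusted p = 0.0363). On splenic Treg replicate 1 the intensities of ILMN_2945348, ILMN_2608995 and ILMN_2631752 were 139, 148 and 136. The 95th percentile of the negative controls on that array was 161. ILMN_2608995 also lay below it on splenic Treg replicate 3 (210 beside 267). The folds of all 3 probes therefore rest in part on signals near background. Each of these 3 calls was lost when single arrays were left out. For ILMN_2945348 this held for warm BAT Treg replicates 1, 2 and 3 and splenic Treg replicates 1 and 3, with limma adjusted p-values of 0.114, 0.0766, 0.103, 0.107 and 0.0501. For ILMN_2608995 it held for warm BAT Treg replicates 1 and 2 and splenic Treg replicates 1 and 3, with 0.112, 0.0569, 0.0754 and 0.0824. For ILMN_2631752 it held for all 3 warm BAT Treg replicates and splenic Treg replicates 1 and 2, with 0.112, 0.0947, 0.0773, 0.105 and 0.105.

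ILMN_3079919, among the brightest of the set, read 11.40, 11.55 and 11.63 in warm BAT Treg cells and 9.84, 10.13 and 10.14 in splenic Treg cells. Its arrays varied little, and the difference of 2.82-fold came without overlap (limma adjusted p = 4.12e-04). ILMN_1248382, the brightest, differed with a limma adjusted p-value of 0.00123 but by only 1.85-fold, and was not called. ILMN_1254228 went the other way, reading 5.84, 5.14 and 5.27 in warm BAT and 7.80, 6.19 and 7.87 in spleen (3.65-fold lower in BAT, limma adjusted p = 0.00654). It was detected on every Treg array and on no Tconv array, and its splenic replicate 2 was lower than the others. Its warm BAT Treg intensities were 175, 144 and 159, beside 95th percentiles of the negative controls of 166, 187 and 198 on those arrays. The size of the fold therefore rests in part on signals near background. Without background correction the call was lost by the fold alone, at -0.94 log2 units (limma adjusted p = 0.0064). It was lost by the adjusted p-value in a limma fit of only these 6 arrays (0.135). The same held for the unmoderated test of the study's methods (0.255).

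**Figure D3:**
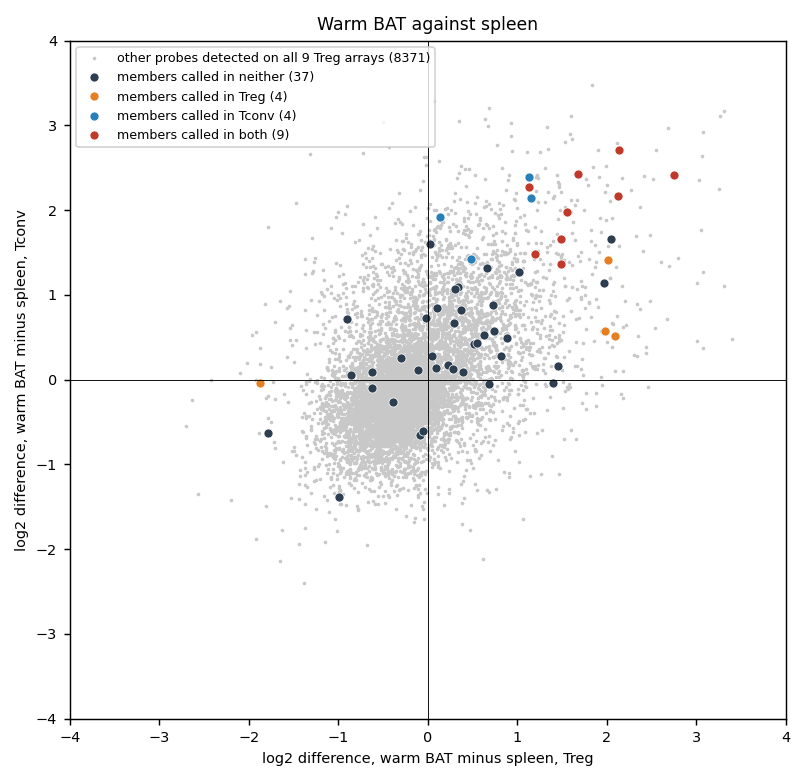
Log2 difference, warm BAT minus spleen, after background correction, in Treg cells (horizontal axis) and Tconv cells (vertical axis). Grey points are the 8371 other probes detected on all 9 Treg arrays, and large points are the 54 probes, coloured by the cell types in which they were called. Most large points lie to the upper right of the origin, with 9 called in both cell types, and the 4 called in Treg cells alone include ILMN_1254228 on the left at -1.87.

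The same comparison in Tconv cells gave a similar count. Of the 54 probes, 13 were higher in warm BAT than in splenic Tconv cells (24.1%), against 1.9% of all tested probes and 2.5% of those detected on all 9 Treg arrays. None was lower by limma, against 0.759% of all tested probes and 1.22% of those detected on all 9 Treg arrays, and the unmoderated test of the study's methods gave 0 lower as well, also before adjustment. The median difference was 0.62 log2 units, beside -0.03 over all tested probes, and 45 of the 54 were above 0. The probes higher in BAT were partly the same in both cell types. Called in both were 9, which is 75% of the 12 of Treg cells and 69.2% of the 13 of Tconv cells. Over all tested probes, 99 were called higher in both, 22.4% of the 442 of Treg cells and 29.9% of the 331 of Tconv cells. Among probes detected on all 9 Treg arrays these shares were 36.4% and 20.4%, and the difference from the 54 was not tested. The choice placed Treg above Tconv cells in both tissues, which ties the BAT minus spleen differences of the cell types to each other. Both comparisons also share BeadChips and the estimate of the spread. The overlap can therefore be partly built in, and no independent agreement is read from it. For the 3 called higher in Treg cells alone and the 4 in Tconv cells alone, the difference between the cell types was not tested.

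ILMN_1216689 had the largest difference in Tconv cells, reading 8.44, 8.56 and 8.43 in warm BAT and 5.76, 4.94 and 6.60 in spleen. The BAT arrays were nearly level and the splenic arrays spread over a wide range below them (6.54-fold, limma adjusted p = 0.00102). ILMN_2960714 read 8.67, 8.76 and 9.16 against 7.58, 6.13 and 5.62 (5.36-fold, adjusted p = 0.00421), without overlap. ILMN_2734340 read 7.58, 7.53 and 7.39 in BAT and 5.07, 5.05 and 5.13 in spleen, where no Tconv array detected it. It was therefore at least 4.84-fold higher in BAT (limma adjusted p = 9.44e-05). ILMN_2598990 read 7.73, 7.67 and 7.62 against 5.39, 5.04 and 5.43 (5.23-fold, adjusted p = 0.00722), and ILMN_2897891 read 7.73, 7.13 and 7.77 against 5.50, 5.11 and 5.20 (4.83-fold, adjusted p = 4.61e-05). The groups of both lay far apart. ILMN_2897891 was detected on 1 of the 3 splenic Tconv arrays, and ILMN_1216689 and ILMN_2598990 on 2 of 3. The 95th percentiles of the negative controls on those arrays were 196, 187 and 189. All splenic Tconv intensities of ILMN_2598990 (152, 115 and 142) and ILMN_2897891 (159, 120 and 128) lay below them. The folds of both therefore rest on signals near background. Those of ILMN_1216689 (175, 107 and 197) and ILMN_2960714 (286, 169 and 152) do so in part.

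The choice of probes fixed the order of the cell types within a tissue, but not across tissues. ILMN_2734340 was 2.34-fold higher in Treg than in Tconv cells of warm BAT, 7.31-fold higher in cold BAT and at least 1.68-fold higher in spleen, while warm BAT Tconv cells lay above splenic Treg cells. ILMN_1216689 likewise read higher in warm BAT Tconv cells, 8.48 ± 0.07, than in splenic Treg cells, 7.38 ± 0.51 (mean ± SD, n = 3).

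The level of the whole set depended on how arrays were scaled. With scaling to the median in place of quantile normalization, the median of all tested probes moved by 0.26 log2 units for Treg cells and by 0.23 for Tconv cells. Relative to that median, the 54 probes lay 0.61 log2 units higher in warm BAT than in splenic Treg cells with quantile normalization and 0.89 higher with median scaling. In Tconv cells the corresponding values were 0.65 and 0.71. The number called higher in BAT Treg cells was 12 and 21, with 1 lower in both. Leaving out warm BAT Treg replicate 1 gave 5 called higher, and leaving out warm BAT Tconv replicate 3 gave 8 in Tconv cells in place of 13.

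Cold exposure was compared next, to see whether the probes chosen as higher in Treg cells differed between cold and warm BAT. In Treg cells, limma called 0 of the 54 higher and 0 lower, where 0.0747% of all tested probes were called higher in the cold and 0.0115% lower. Of the 8425 probes detected on all 9 Treg arrays, 0 were called in either direction as well. The smallest adjusted p-value of the 54 was 0.603. At an unadjusted limma p-value under 0.05 there were 4 of the 54 and 1041 of all 17395 tested probes (5.98%), and the unmoderated test of the study's methods called 0 in either direction before and after adjustment. The median difference, cold minus warm, was -0.05 log2 units, with a range of -1.14 to 0.98, and -0.04 over all tested probes.

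The extremes of this range show the spread behind it. ILMN_2742599 had the highest value, 0.98 ± 0.36 (SE), from 5.59, 6.58 and 6.72 in warm BAT and 7.88, 6.86 and 7.08 in cold BAT Treg cells. Every cold array lay above every warm array, though the lowest cold and the highest warm value were close. ILMN_2608995 had the lowest, -1.14 ± 0.49, from 9.38, 7.93 and 7.31 in warm and 7.26, 7.27 and 6.66 in cold BAT. Its warm replicate 1 was by far the highest, and neither probe passed adjustment (limma adjusted p = 0.603 and 0.777).

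In Tconv cells, 0 of the 54 were called higher in cold BAT, as were 0% of all tested probes, and 1 was called lower, ILMN_2734340. It was the only probe called in this comparison among all tested (0.00575%). Its Tconv values were 7.58, 7.53 and 7.39 in warm BAT and 5.53, 5.55 and 5.69 in cold BAT. Each group was tight and they lay far apart, a 3.75-fold lower level in the cold (-1.91 ± 0.24 log2 units, limma adjusted p = 0.0223). The cold intensities were 173, 181 and 206, all below the 95th percentile of the negative controls on those arrays (204, 205 and 231). The size of the fold and the tightness of the cold group therefore rest on signals near background. The call was lost when any 1 of the 6 arrays was left out and under 5 other settings, with the difference between -2.03 and -0.89 log2 units throughout. In Treg cells, the same probe differed by -0.26 ± 0.24 log2 units (adjusted p = 0.999), and the difference between the cell types was not tested. The choice of probes also required its cold BAT Tconv values to lie below its cold BAT Treg values.

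Unadjusted limma p-values under 0.05 were held in Tconv cells by 4 of the 54 probes and by 761 of all tested probes (4.37%). Beside ILMN_2734340 these were ILMN_2502346, ILMN_2419490 and ILMN_2689731, with cold minus warm differences of -1.07, -1.12 and -1.42 log2 units and adjusted p-values of 0.854, 1 and 1. The median over the 54 was -0.05.

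**Figure D4:**
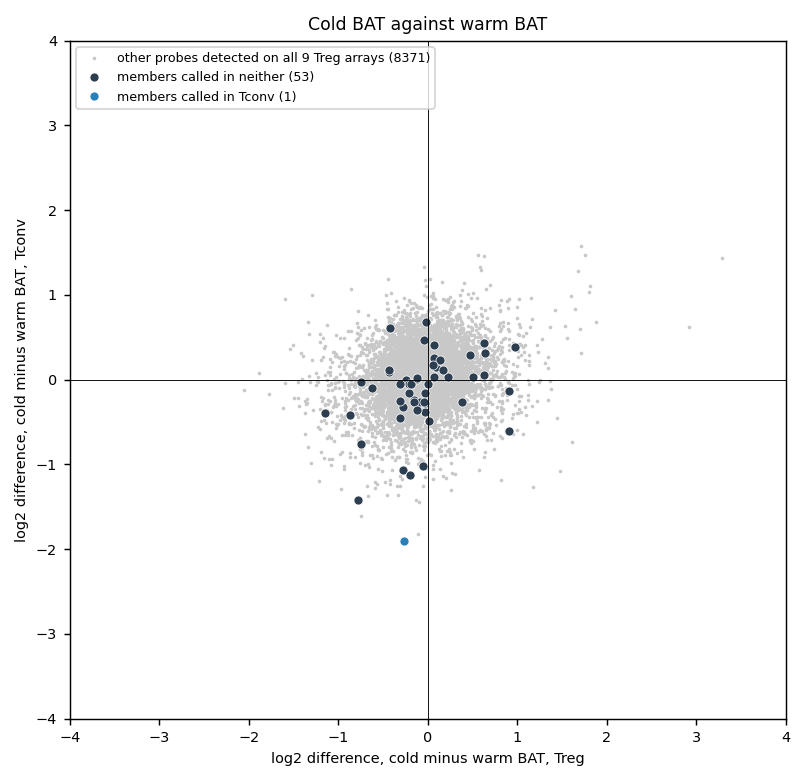
Log2 difference, cold minus warm BAT, after background correction, in Treg cells (horizontal axis) and Tconv cells (vertical axis). Grey points are the 8371 other probes detected on all 9 Treg arrays, and large points are the 54 probes. Most large points lie around the origin within the cloud of the other probes, and the 1 called point, ILMN_2734340, lies below them at -1.91 in Tconv cells.

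The 54 probes did not rank the arrays of a group evenly. Splenic Treg replicate 3 was the highest of its group for 30 of the 54 probes, and for 34.1% of all tested probes. Cold BAT Treg replicate 1 was the lowest of its group for 31, and for 44.4% of all tested probes, so it was low beyond the set too. Cold BAT Tconv replicate 1 was the lowest for 29, and for 32.2% of all tested probes. Leaving out splenic Treg replicate 2, and asking for the same order and detection on the arrays that were left, gave 90 probes in place of 54. Leaving out any other single array gave 58 to 76.

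How probes moved together within groups was described by the deviations of each array from its group mean, over 18 arrays. For the 1431 pairs among the 54 probes the median Pearson correlation of these deviations was 0.07, with a range of -0.94 to 0.99, and 3 pairs exceeded 0.9. The closest pair was ILMN_1217629 and ILMN_2699898 (0.99). ILMN_1217629 read 8.55, 6.58 and 7.15 in warm BAT Treg, 5.61, 6.22 and 8.58 in cold BAT Treg and 5.41, 5.26 and 7.26 in splenic Treg cells. ILMN_2699898 read 8.60, 6.65 and 7.39 in warm BAT, 5.53, 6.16 and 8.71 in cold BAT and 5.37, 5.48 and 7.60 in spleen. In each group a single array was far above the rest for both probes, replicate 1 in warm BAT and replicate 3 in cold BAT and spleen, while their Tconv arrays stayed near background.

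The other close pairs were ILMN_1232116 with ILMN_3074985 (0.95) and ILMN_2669912 with ILMN_1237197 (0.91). ILMN_2669912 and ILMN_1237197 shared a low value on splenic Tconv replicate 1, 5.00 and 5.00, where splenic Tconv replicate 3 read 7.18 and 7.15. ILMN_1232116 and ILMN_3074985 were both lowest on splenic Tconv replicate 2, at 7.75 and 7.53. The most opposed pair was ILMN_1254228 with ILMN_1254669 (-0.94). On the splenic Treg arrays ILMN_1254228 read 7.80, 6.19 and 7.87 and ILMN_1254669 read 5.86, 8.45 and 5.33, so replicate 2 was the lowest array for the former and the highest for the latter. All 18 deviations share arrays and groups, the pairs were picked after their values were seen, and the correlations are given without a test. The identifiers ILMN_2692986 and ILMN_2692989 differ by 3 and correlated at 0.79, and ILMN_2419490 and ILMN_2419494 differ by 4 and correlated at 0.62. Whether a pair stands for 1 gene was not analysed here.

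**Figure D5:**
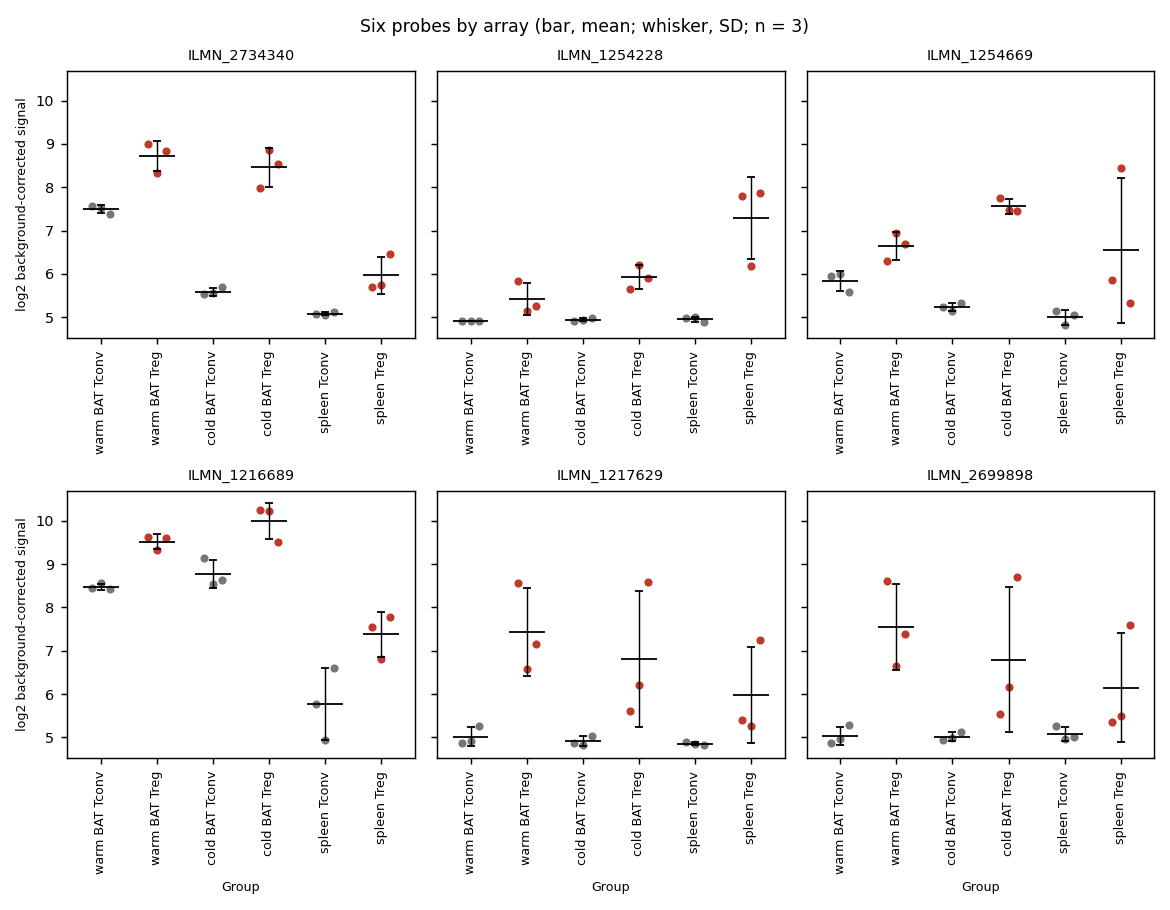
Log2 background-corrected signals (vertical axis) of 6 probes in the 6 groups (horizontal axis). Points are arrays (grey, Tconv; red, Treg), bars are means and whiskers SD over 3 arrays. ILMN_2734340 lies higher in BAT than in spleen in Treg cells and drops between warm and cold BAT in Tconv cells, ILMN_1254228 is highest in splenic Treg cells, ILMN_1254669 has a wide splenic Treg group from 5.33 to 8.45, ILMN_1216689 is lowest in spleen in both cell types, and ILMN_1217629 and ILMN_2699898 show the same single high array in each Treg group.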

How the data were processed

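Treg and Tconv cells from warm BAT, cold BAT and the spleen were measured on 18 Illumina MouseWG-6 v2.0 arrays, 3 per group. The authors deposited 1 table with, for each probe and array, a mean bead intensity that was neither normalized nor corrected for background, a detection p-value whose calculation is not given in the sources used here, and the spread and number of beads (deposited as intensity and as bead counts). A further 36 columns, counts of outlying or bad beads, were not used.

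The set was formed on log2 intensities quantile-normalized over the 18 arrays, with a detection p-value under 0.05. The probes and lists were chosen with earlier results of these data known. For the tests, limma 3.58.1 in R 4.3.3 corrected the background with 936 negative controls (neqc, offset 16), quantile-normalized and took log2. Testing covered the 17395 probes that every array of some group detected. The model held a mean for each group and left 12 residual degrees of freedom, and Benjamini-Hochberg adjustment ran over all of these probes. With 3 arrays against 3, the smallest two-sided p of an exact permutation test is 0.1, so the small number of arrays limits precision.

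Probes were named if they had 1 of the 10 largest smallest gaps, 1 of the 5 highest or lowest Treg means, 1 of the 5 largest differences called in a direction, or lay among the 5 nearest to the edge of the choice on either side. Others, among them the pairs, were named after their values were seen. The methods name no normalization or test for these arrays, and their t-test was run as an alternative. Other alternatives were the detection limit, the background correction and offset, the scaling, the filter, the replicate number as a block, a fit of only 6 arrays, and each array left out in turn. Lists of Treg, Tconv, adipose and marker genes could not be tested, because probes were not paired with genes. Plots came from matplotlib 3.10.9 under Python 3.11.15.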

Additional observations from a re-analysis of the deposited data

Results flagged for a closer look

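ILMN_1254669 differed in opposite directions in the 2 cell types between warm and cold BAT. On the corrected log2 scale its Treg arrays read 6.31, 6.95 and 6.68 in warm BAT and 7.75, 7.48 and 7.45 in cold BAT, a difference of 0.91. Its Tconv arrays read 5.94, 6.00 and 5.57 in warm BAT and 5.24, 5.14 and 5.33 in cold BAT, a difference of -0.60. Every cold Treg array lay above every warm one and every cold Tconv array lay below every warm one, and the 2 differences were 1.51 log2 units apart. This was not tested, and neither difference passed limma's adjustment alone (adjusted p = 0.95 in Treg and 1 in Tconv cells). The cold Tconv intensities were 154, 147 and 178, all below the 95th percentile of the negative controls on those arrays (204, 205 and 231), and the choice of probes had required them to lie below the cold Treg values. Among the 54 probes it was the only one with this pattern (1.85%), which 43 of the 17395 tested probes (0.247%) and 10 of the 8425 detected on all 9 Treg arrays (0.119%) held in all.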

How the results depend on the processing

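The 54 probes became 82 without the detection filter and 11 with a gap over 0.5 log2 units, and 58 to 90 with 1 array left out (90 without spleen Treg replicate 2). A detection p-value under 0.01 gave 51, neqc 54, scaling to the median 60 (47 of them among the 54) and no normalization 44 (32 among the 54). Probes higher in warm BAT than spleen Treg cells (12) were 21 with scaling to the median, 7 with no filter, 5 in a fit of the 6 arrays compared, 0 by the methods' t-test after adjustment (14 before it) and 5 to 11 with 1 array left out, with 5 without warm BAT Treg replicate 1. Those lower (1) were 0 with no background correction, in the 6-array fit and by the t-test (2 before adjustment), 2 with an offset of 50 or a detection p-value under 0.01, and 1 to 2 with 1 array left out (2 without spleen Treg replicate 1 or 3). In Tconv cells, those higher (13) were 7 in the 6-array fit, 1 by the t-test (16 before adjustment) and 8 to 17 with 1 array left out, with 8 without warm BAT Tconv replicate 3. The Tconv call lower in cold BAT (1) was 0 with no background correction, an offset of 50, no filter or the t-test (3 before adjustment), and 0 with any array left out. Within a cell type, same-numbered arrays of the tissues compared had correlated deviations of -0.04 to 0.09, and Treg and Tconv arrays of 1 tissue -0.01 to 0.19. Between the cell types, the best match was the own number for 3 of 3 replicates in warm BAT, 1 in cold BAT and 2 in spleen. The numbers were not taken as pairs, and whether the cell types were paired was not tested. With the replicate block, 12 were higher and 1 lower in BAT Treg cells, 13 were higher in BAT Tconv cells, and the cold Tconv count was 0. Comparisons with 0 calls stayed at 0 under all 14 settings. The causes were not tested. No gene-list comparison was run, since probes carried no gene names. Signals near background limit the fold changes of dim probes, and folds given as at least a value hold for the offset of 16.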
